A study of Mus musculus with 4 samples.

Results

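Formins are proteins that build unbranched actin filaments, and 10 genes of this family, Diaph1, Diaph2, Diaph3, Fhod1, Fhod3, Daam1, Daam2, Fmn1, Fmnl1 and Fmnl2, were followed in quadriceps muscle of wild-type (WT) mice and of mice that lack an exon of the transcription factor gene Mef2d. They were taken by gene symbol from the 51826 rows of the deposited count table. The family was picked because Diaph1 was lower in the mutant mice in these same 4 libraries, so the genotype values of its members are given as a description and do not stand as independent evidence. Of the 10 members, 9 had enough counts to be tested beside 16120 genes in all. The other one, Diaph3, had 1 or 2 counts in each library.

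The formin homology 2 (FH2) domain nucleates a filament and then stays on its growing barbed end, and the neighbouring FH1 domain feeds in actin bound to profilin. Diaphanous-type formins are held closed by contact between their own ends until they are activated. In striated muscle, formins are known for their part in assembling and maintaining the thin filaments of the sarcomere, and filament growth by Diaph1 also frees coactivators of the transcription factor SRF from monomeric actin.

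The mutant mice, named Mef2dα2 Eko, are homozygous for a CRISPR-Cas9 deletion of the muscle-specific α2 exon of Mef2d on a C57BL6/J background. The exon is deleted in the germline, so every cell of the animal carries the change, and muscle of these mice uses the mutually exclusive α1 exon in its place. WT mice came from the same crosses between heterozygous parents. Polyadenylated RNA was sequenced from 1 quadriceps library per mouse, from 2 WT and 2 Mef2dα2 Eko males that were sedentary, ate standard chow, were about 20 weeks old and had their muscles collected within 1 hour. The founder line of the sequenced mice is not given in the sources used here.

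Total expected counts ranged from 72626757 to 85176059 per library. At these depths the floor of 3 counts lay between 0.0348 and 0.0419 CPM (the count scaled to library size), which covers counting error only. WT mouse 1 stood apart from the other libraries: per degree of freedom, the chi-square of its counts over genes was 118.8 to 214.9 against each of the other libraries and 35.5 to 42.0 among those. The summed level of 10 myofibre markers lay between 138900 and 147700 CPM, so the markers of the labelled tissue were high in every library. Mef2d itself had 19687 and 18393 counts in WT mice and 21695 and 17206 counts in Mef2dα2 Eko mice, and a count per gene does not separate the α1 from the α2 exon, so it does not check the genotype. With 2 mice a group, a permutation test of a single gene cannot give a two-sided p below 0.333, and all adjusted p-values below come from edgeR fitted to all tested genes.

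Diaph1, also known as mDia1, was the most abundant of the formins looked up and the member with the largest genotype difference. Its counts were 10695 and 10339 in WT mice and 7724 and 6158 in Mef2dα2 Eko mice. Scaled to library size, this was 140.9 and 127.8 CPM in WT mice and 89.6 and 86.1 CPM in Mef2dα2 Eko mice. Both mutant mice lay below both WT mice, and the space between the genotypes was wider than the space within either. The mean fell from 134.4 ± 9.26 CPM (SD, n = 2 mice) to 87.9 ± 2.47 CPM (SD, n = 2 mice), which left 65.4% of the WT level. On the log2 scale the change of Mef2dα2 Eko over WT was −0.61 with a standard error of 0.07 and a 95% confidence interval from −0.79 to −0.44. The adjusted p of edgeR's quasi-likelihood test was 0.0425, close to the threshold of 0.05. These are the values the family was chosen by.

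With WT mouse 1 left out, the log2 fold change of Diaph1 was −0.54 with an adjusted p of 0.0293 in edgeR. When genes had to reach 1 CPM in 2 libraries, the adjusted p of edgeR was 0.0556, above the threshold, at a log2 fold change of −0.62. Across all tested genes 0.416% passed the threshold in either direction and 0.31% passed it as lower in Mef2dα2 Eko mice, 67 and 50 genes of 16120. Of these 67 genes, 15 had a smaller log2 fold change in size than Diaph1. Since Diaph1 decided the choice of the family, nothing is read from its passing.

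Diaph1 spans chr18:37843601-37935476 on the minus strand of GRCm38, and none of its exon bases overlap an exon of a gene on the other strand in GENCODE release M21. In bulk tissue, fewer cells of a type and less RNA per cell cannot be told apart, and this holds for each value given here.

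The other diaphanous genes were far lower. Diaph2, a paralogue on chromosome X known for a role in ovarian function, had 390 and 377 counts in WT mice and 432 and 355 counts in Mef2dα2 Eko mice. Its level was 4.90 ± 0.338 CPM in WT mice and 4.99 ± 0.0333 CPM in Mef2dα2 Eko mice (SD, n = 2 mice each), and the genotypes overlapped. The 95% interval of its log2 fold change in edgeR was −0.26 to 0.31. Diaph3, a paralogue with roles in dividing cells, had 2 and 1 counts in WT mice and 1 and 2 counts in Mef2dα2 Eko mice. These counts are under the floor in every library, so no fold is given and the gene was not detectable at this depth.

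**Figure D1:**
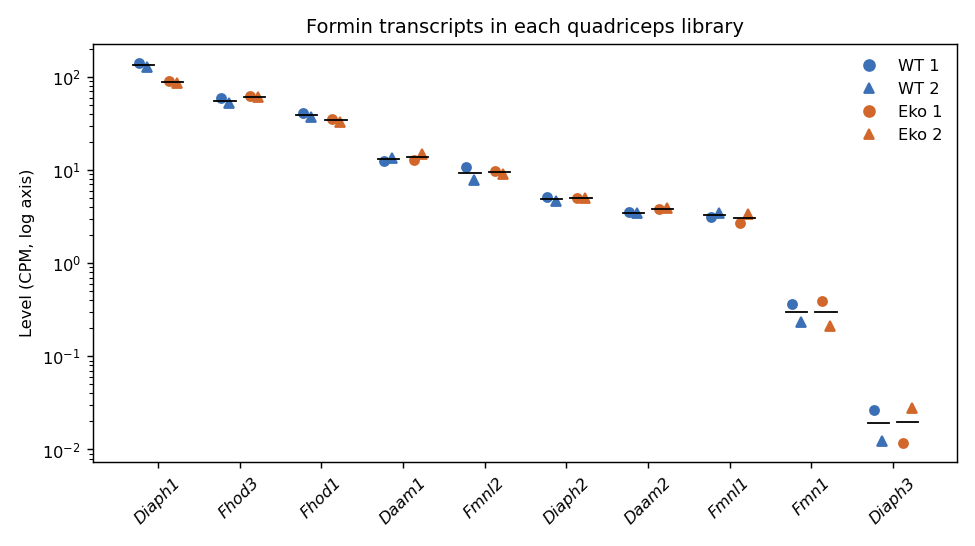
Level of each formin gene in each quadriceps library, in CPM on a log axis, with 1 dot per mouse and a tick at the mean of 2 mice per genotype. Diaph1 shows the widest gap between genotypes, 140.9 and 127.8 against 89.6 and 86.1 CPM, while Diaph3 sits under the 3-count floor in every library.

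The FHOD formins followed Diaph1 in abundance. Fhod3, which is known for its place in the sarcomere of heart and skeletal muscle, had 59.2 and 52.0 CPM in WT mice and 61.6 and 60.9 CPM in Mef2dα2 Eko mice. Both mutant mice lay above both WT mice, but the WT mice differed from each other by more than the higher WT mouse did from the lower mutant mouse. The log2 fold change was 0.14 with a standard error of 0.08, and the adjusted p of edgeR was 0.562. Fhod1, a relative linked to stress fibres, had 40.5 and 37.5 CPM in WT mice and 35.4 and 33.2 CPM in Mef2dα2 Eko mice. The mutant mice were lower without overlap, at 87.8% of the mean in WT mice. In edgeR the log2 fold change of −0.19 had a 95% interval from −0.37 to −0.01 and an adjusted p of 0.42, so Fhod1 did not pass the test across all genes.

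Fhod1 lies at chr8:105329163-105347953 and shares 116 exon bases with Tmem208 on the other strand, and Fhod3 lies at chr18:24708623-25133501 and shares 309 exon bases with Gm9955. Whether the counting used strand is not given in the sources used here, so reads over these bases are uncertain.

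The difference of Fhod1 was smaller without WT mouse 1, with a log2 fold change of −0.13, and after the trend of each library with GC content was removed, with −0.10. The interval of Fhod3 ran from −0.05 to 0.33 on the log2 scale. With 1 mouse left out, the log2 fold change of Fhod3 ranged from 0.06 to 0.24.

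**Figure D2:**
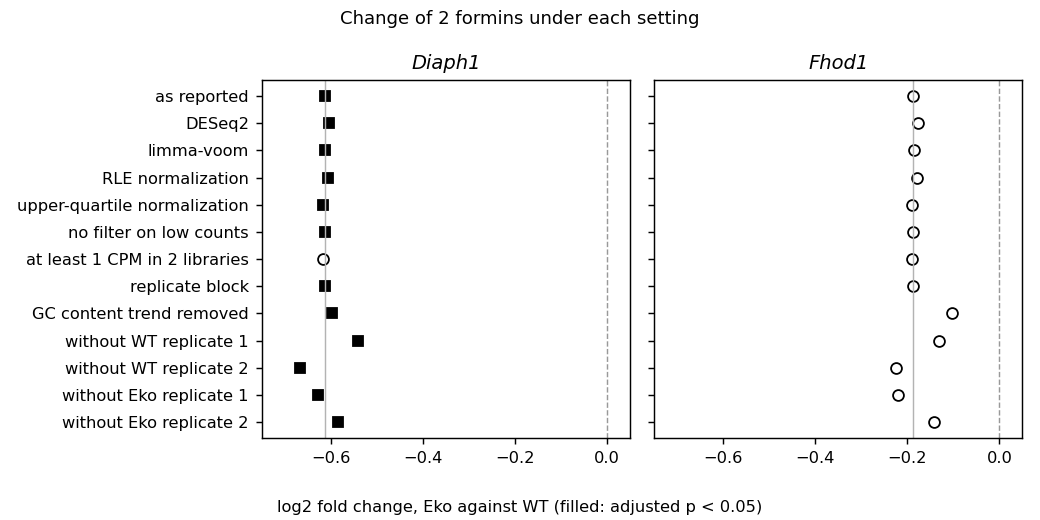
Log2 fold change of Mef2dα2 Eko over WT for Diaph1 and Fhod1 under 13 settings of the analysis, filled where the adjusted p was under 0.05. Diaph1 stays between −0.67 and −0.54 and is open where genes had to reach 1 CPM in 2 libraries, and Fhod1 is open throughout.

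**Figure D3:**
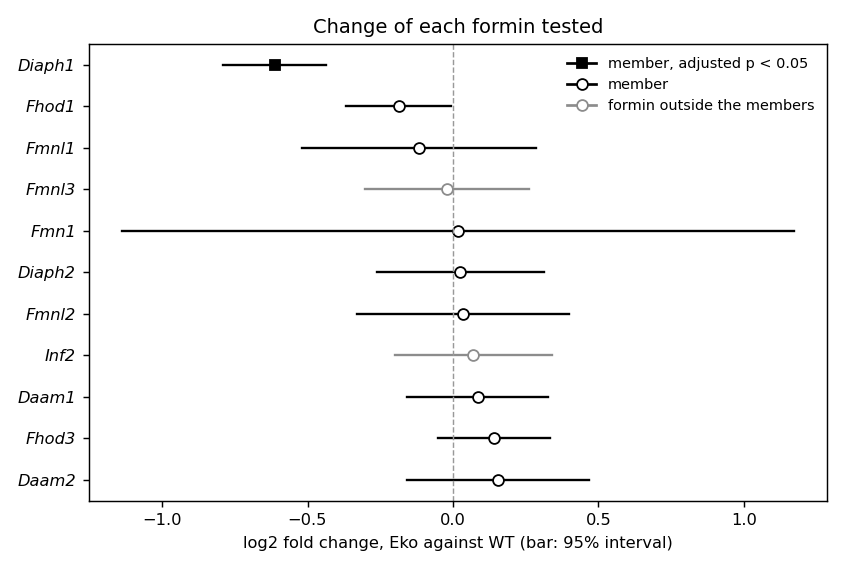
Log2 fold change of Mef2dα2 Eko over WT for the 9 tested members and for Fmnl3 and Inf2. The point is edgeR's estimate, and the line is a 95% confidence interval derived from its F test. Diaph1 at −0.61 is the gene past the adjusted threshold, and Fmn1 has the widest interval, from −1.14 to 1.17.

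The DAAM formins act downstream of Dishevelled in Wnt signalling, and Daam1 has also been placed at the sarcomere. Daam1, at chr12:71831078-71992333, had 12.6 and 13.5 CPM in WT mice and 12.8 and 14.8 CPM in Mef2dα2 Eko mice. The genotypes overlapped, and the adjusted p of edgeR was 0.797 at a log2 fold change of 0.08. Daam2, at chr17:49456022-49564343, had 3.50 and 3.42 CPM in WT mice and 3.79 and 3.93 CPM in Mef2dα2 Eko mice. Both mutant mice were higher, but the log2 fold change of 0.16 had a 95% interval from −0.16 to 0.47 and an adjusted p of 0.697 in edgeR.

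Among the remaining members, Fmnl2, a Rac and Cdc42 effector at the leading edge of moving cells, was the most abundant. It had 10.7 and 7.82 CPM in WT mice and 9.77 and 9.13 CPM in Mef2dα2 Eko mice, so the WT mice lay outside the mutant mice on both sides. Its adjusted p in edgeR was 0.954. Fmnl1, a formin best known from leukocytes, had 3.16 and 3.45 CPM in WT mice and 2.70 and 3.41 CPM in Mef2dα2 Eko mice. The genotypes overlapped here too, with an adjusted p of 0.84 in edgeR, and 120 exon bases are shared with Gm20511 on the other strand. Fmn1, whose locus is known from limb development, was scarce, with 28 and 19 counts in WT mice and 34 and 15 counts in Mef2dα2 Eko mice. Its mean was 0.302 CPM in both genotypes, and the interval of its fold, 0.455 to 2.25, leaves room for a change of either sign larger than that of Diaph1. It shares 449 exon bases with Gm13966 on the other strand and 31 with Gm13963.

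Of 4 further formins looked up outside these 10, Fmnl3 and Inf2 could be tested and did not pass the threshold. Fmnl3 had 446 and 507 counts in WT mice and 486 and 454 counts in Mef2dα2 Eko mice, with a log2 fold change of −0.02 and a standard error of 0.12. Inf2, which also severs filaments and acts at the endoplasmic reticulum, had 542 and 509 counts in WT mice and 599 and 512 counts in Mef2dα2 Eko mice, with a log2 fold change of 0.07 and a standard error of 0.11. Both overlapped between genotypes. Fmn2 and Grid2ip had too few counts to be tested, with 7 to 13 counts for Fmn2 and 0 to 2 counts for Grid2ip.

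Counted over the family, 1 of the 9 tested members passed the threshold, and the 8 others had log2 fold changes from −0.19 to 0.16. Of the 9, 3 had a log2 fold change below 0 and 6 above 0, with a median of 0.03, where the median over all tested genes was −0.01. The genotypes did not overlap for 4 members, Diaph1 and Fhod1 lower and Fhod3 and Daam2 higher, a pattern without overlap that 43.8% of all tested genes had in one direction or the other.

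Levels of different genes were compared per kilobase of annotated exon. On that scale Diaph1 came first in every mouse, with 22.2 and 20.2 CPM per kb in WT mice and 14.1 and 13.6 CPM per kb in Mef2dα2 Eko mice. With this length Fhod1, at 8.67 and 8.05 CPM per kb, lay above Fhod3, at 8.16 and 7.16 CPM per kb, within each WT mouse. Their ranges over the WT mice overlapped. In Mef2dα2 Eko mice Fhod3, at 8.49 and 8.41 CPM per kb, lay above Fhod1, at 7.58 and 7.11 CPM per kb. Then came Fmnl2 and Daam1, whose mice overlapped in both genotypes, at WT means of 1.64 ± 0.357 and 1.61 ± 0.0758 CPM per kb (SD, n = 2 mice each). Fmnl1 was next with a WT mean of 0.677 CPM per kb, followed by Diaph2 with 0.424 and Daam2 with 0.355, and Fmn1 and Diaph3 came last. The place of Daam2 held for the exon union only: with the longest coding transcript as length its share of the summed level was 1.91% in WT mice in place of 0.847%, above the 1.74% of Fmnl1 and the 1.16% of Diaph2, and with the mean coding length it was 2.35% against 2.13% and 1.36%. With both of these lengths Daam2 lay above Fmnl1 and Diaph2 in Mef2dα2 Eko mice too.

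Diaph1 made up 50.5% of the summed CPM per kb of the 10 members in each WT mouse and 40.5% and 39.8% in Mef2dα2 Eko mice. The share of Fhod3 was 18.3% ± 0.426 in WT mice and 24.5% ± 0.236 in Mef2dα2 Eko mice (SD, n = 2 mice each), and that of Fhod1 was 19.7% and 20.2% against 21.7% and 20.8%. A share is set against a sum that holds Diaph1, and the level of Fhod3 itself did not pass the test. The ratio of Fhod3 to Diaph1 was 0.367 and 0.355 in WT mice and 0.601 and 0.619 in Mef2dα2 Eko mice. The order of Fhod1 and Fhod3 in WT mice depended on the length used as well, whereas Diaph1 held between 46.9% and 50.5% in WT mice and between 36.5% and 40.2% in Mef2dα2 Eko mice with each of 3 length measures.

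The summed level of the 10 members was 44.0 and 39.9 CPM per kb in WT mice and 34.9 and 34.1 CPM per kb in Mef2dα2 Eko mice. Without Diaph1 the sum was 21.8 and 19.7 in WT mice and 20.8 and 20.5 in Mef2dα2 Eko mice, or 99.5% of the WT mean. The mutant mice lay inside the WT mice for this sum. No test was run on the sums. The sum of all 10 members contains the gene the family was chosen by, and the sum without it is given as a description.

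**Figure D4:**
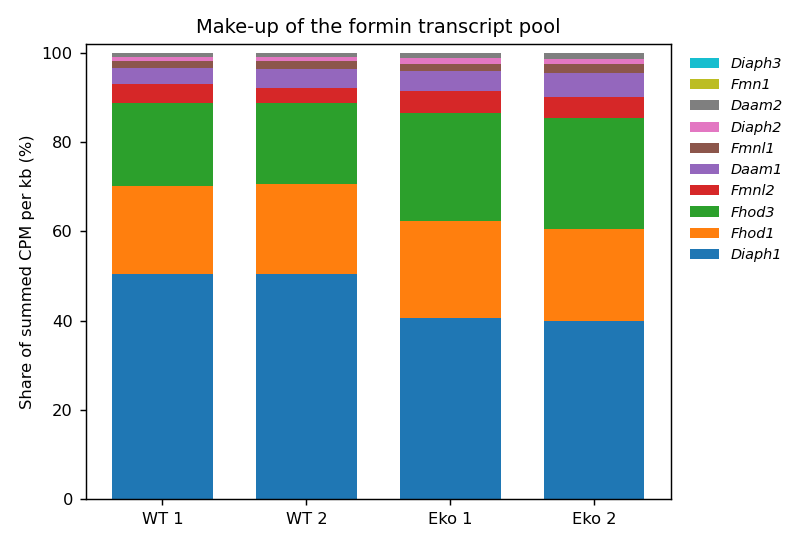
Share of each formin gene in the summed CPM per kilobase of the 10 members, as stacked bars from 0 to 100 percent with 1 bar per mouse. Diaph1 fills 50.5% of the bar in both WT mice and 40.5% and 39.8% in Mef2dα2 Eko mice.

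Formins work with other parts of the actin system, and 8 lists of such genes were looked up in the same fit. Of their 87 symbols, all but Mrtfa and Mrtfb, which stand under their older symbols Mkl1 and Mkl2, are in the table, and 80 were tested. None passed the threshold in edgeR, and 7 had an unadjusted p under 0.05, of which 5 were lower. DESeq2 called 3 list genes, Twf2, Lmod1 and Lmod3, beside 284 of 24621 genes in all. Over all tested genes, 1864 of 16120 had an unadjusted p under 0.05. Other settings of edgeR changed these calls. Without a filter on low counts, 7 list genes passed (Actg1, Actc1, Twf2, Lmod1, Lmod3, Fhl2 and Zyx), beside 799 of 24621 genes in all. With a replicate block, 3 list genes passed (Twf2, Actc1 and Lmod3), beside 186 of 16120 genes in all. The calls also varied with 1 mouse left out, where 1 genotype held 1 mouse. The median log2 fold change over the 80 genes was −0.02, with 47 below 0 and 33 above 0, and the genotypes did not overlap for 31, beside 43.8% of all tested genes.

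The 12 formin partners and upstream kinases had a median log2 fold change of 0.00, from −0.15 for Dvl3 to 0.12 for Rock1. Dvl1, Flii and Cdc42ep3, the most abundant of them, lay at −0.07, 0.00 and −0.02.

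Profilins deliver actin to the FH1 domain. Pfn2 had a log2 fold change of −0.02 and Pfn1 of −0.18, neither past the threshold. Pfn4, at 25 to 45 counts, was higher in both mutant mice by CPM, at 0.73 on the log2 scale with an adjusted p of 0.481 in edgeR. Of the actins, Acta1, the main actin of adult skeletal muscle, had 23470 and 23210 CPM in WT mice and 20820 and 21460 CPM in Mef2dα2 Eko mice, with a log2 fold change of −0.14. Actc1, the cardiac actin that is also made in developing muscle, had 96.7 and 55.9 CPM in WT mice and 150.4 and 162.7 CPM in Mef2dα2 Eko mice. Both mutant mice were above both WT mice, with a log2 fold change of 1.04 and a standard error of 0.22, but the adjusted p of edgeR was 0.171. Actc1 passed the threshold of edgeR when WT mouse 1, WT mouse 2 or Mef2dα2 Eko mouse 1 was left out, and not without Mef2dα2 Eko mouse 2. Of the cytoplasmic actins, Actb lay at −0.10, and Actg1, the lowest of the list, lay at −0.32 with 153.4 and 130.5 CPM in WT mice and 133.8 and 94.3 CPM in Mef2dα2 Eko mice, which overlapped.

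The Arp2/3 complex starts branched filaments, and its 10 subunits had log2 fold changes from −0.24 for Arpc1b to 0.04 for Actr2, with 8 below 0. The most abundant, Arpc2, Arpc5l and Actr3b, lay at 0.00, −0.13 and −0.02. Among 13 other nucleators and nucleation-promoting factors the median was −0.02, with 9 below 0 and 4 above. The lowest was Was at −1.31, with 27 and 18 counts in WT mice and 8 and 10 counts in Mef2dα2 Eko mice. Its adjusted p in edgeR was 0.42. Lmod3, a leiomodin that nucleates actin on thin filaments of skeletal muscle, had 141.7 and 148.3 CPM in WT mice and 111.0 and 108.5 CPM in Mef2dα2 Eko mice. The mutant mice were lower without overlap, at −0.40 on the log2 scale, and the adjusted p of edgeR was 0.0833. Its relatives differed from it: Lmod2 had a log2 fold change of −0.06, and Lmod1, named after its values were seen, had 0.60 with an adjusted p of 0.143 in edgeR.

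Among the 22 genes of filament capping and turnover, the abundant Tmod4, Cfl2 and Gsn had log2 fold changes of −0.01, 0.11 and −0.10. Twf2, a twinfilin that caps filament ends and was likewise picked out by its values, had 5196 and 5172 counts in WT mice and 4360 and 3217 counts in Mef2dα2 Eko mice. It was lower in both mutant mice by CPM, at −0.47 on the log2 scale, and the adjusted p of edgeR was 0.109. Of the 13 SRF coactivators and targets none passed in edgeR or DESeq2, 2 had an unadjusted p under 0.05 in edgeR, and the median was −0.11. Srf itself had 120.4 and 101.4 CPM in WT mice and 96.9 and 94.0 CPM in Mef2dα2 Eko mice, with an adjusted p of 0.437 in edgeR. Tpm1 and Myl9 lay at 0.11 and 0.21 on the log2 scale. The largest difference of the list was that of Fhl2, a LIM-domain protein, with 287 and 252 counts in WT mice and 211 and 128 counts in Mef2dα2 Eko mice. By CPM both mutant mice were lower, at −0.70 on the log2 scale, and the adjusted p of edgeR was 0.285. The lowest adjusted p of the list was 0.28, for Zyx at −0.34.

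**Figure D5:**
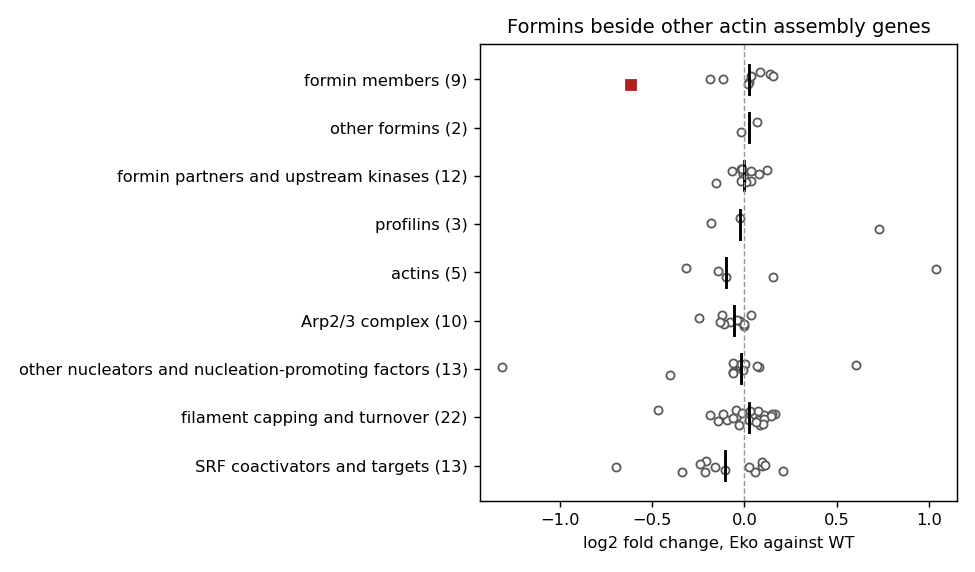
Log2 fold change of Mef2dα2 Eko over WT for each tested gene of the formin members and of 8 lists of actin genes, with 1 mark per gene and a tick at the median of a list. Diaph1, at −0.61, is the filled square and the mark past the adjusted threshold of edgeR.

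Markers of other cells in the muscle also differed between libraries. The summed level of 9 macrophage markers was 46.5 and 37.9 CPM in WT mice and 33.6 and 25.2 CPM in Mef2dα2 Eko mice, and 6 of the 9 were lower without overlap. None of these 9 passed the threshold in edgeR, 6 had an unadjusted p under 0.05, and DESeq2 called 1. In edgeR 4 passed without a filter on low counts, beside 799 of 24621 genes in all. With a replicate block 2 passed, beside 186 of 16120 genes in all. DESeq2 called 284 of 24621 genes in all. The shares over all tested genes were 43.8% without overlap in either direction and 1864 of 16120 with an unadjusted p under 0.05. The 6 adipocyte markers summed to 81.6 and 31.5 CPM in WT mice and 26.5 and 11.5 CPM in Mef2dα2 Eko mice. None of them passed in edgeR or DESeq2, and 4 had an unadjusted p under 0.05 in edgeR. In edgeR 5 passed without a filter on low counts and 4 with a replicate block, with the same calls over all genes as above. For both lists the calls also varied with 1 mouse left out, where 1 genotype held 1 mouse. Endothelial markers, from 155.5 to 180.7 CPM, smooth muscle and pericyte markers, from 3279 to 3398 CPM, and fibroblast markers, from 351.0 to 453.4 CPM, overlapped between the genotypes in their sums. Des stood in both the myofibre and the smooth muscle list, so the smooth muscle sum includes myofibre RNA. Of the 7 smooth muscle markers, 4 were higher and 1 lower without overlap, and 3, all higher, had an unadjusted p under 0.05 in edgeR. Of the 7 fibroblast markers, 3 were lower without overlap, and 2, both lower, had an unadjusted p under 0.05 in edgeR. Single markers could differ: DESeq2 called Myh1 and Myh2 of the myofibre list and Col3a1 of the fibroblast list. These did not pass in the reported edgeR fit or with a replicate block, but passed in edgeR without a filter on low counts. Markers of satellite cells, at 16.5 to 19.7 CPM, proliferating cells, at 0.881 to 1.14 CPM, and erythroid cells, at 107.6 to 111.3 CPM, overlapped as well. Markers of other leukocytes were slightly lower in the mutant mice, at 5.36 and 5.34 CPM against 5.20 and 4.56 CPM, and those of Schwann cells were higher, at 41.3 and 43.2 CPM against 45.1 and 54.8 CPM. No marker of any list was at 0 in all libraries. Beside these sums, Diaph1 stood at 140.9 and 127.8 CPM in WT mice and at 89.6 and 86.1 CPM in Mef2dα2 Eko mice. The part of these cells in the values of Diaph1 and the other formins was not tested.

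The genes whose pattern over the 4 libraries was nearest to that of Diaph1 were not formins. By the Euclidean distance between centred log2 levels, these were Hn1 at 0.0395, St3gal5 at 0.0428, Dlg4 at 0.0506, Myh10 at 0.0578 and Ckmt2 at 0.0595. Of these, Myh10 encodes a non-muscle myosin heavy chain and Ckmt2 the mitochondrial creatine kinase of sarcomeric muscle. The nearest formin member was Fhod1 at 0.426, which ranked 1456 among the tested genes. Such distances over 4 libraries only order the genes and carry no test.

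Promoter windows from 250 bases before to 50 bases after the start were given by RefSeq on GRCm38.p6 for 8 of the 10 members, 11 windows in all, and these were searched on both strands for the MEF2 motif and the CArG box bound by SRF. Neither motif was in any of the 11 windows, while 3.19% and 1.63% of all 32851 windows held them. No match says only that these letters are not in this window, and Diaph1 had no window to search.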

How the data were processed

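Polyadenylated RNA of quadriceps from 2 WT and 2 Mef2dα2 Eko mice was compared, with genotype taken from the sample labels. The authors aligned reads to mm10 and deposited expected counts per gene from RSEM. STAR 2.6.1a is listed in the submitters' processing notes. All deposited values were whole numbers, so rounding changed none. The counting did not resolve exons, and its strand setting is not given in the sources used here. The genotype test was edgeR's quasi-likelihood F test (edgeR 4.0.16, R 4.3.3; TMM, edgeR's default low-count filter, genotype as sole term), with Benjamini-Hochberg adjustment over 16120 of 24621 genes with any count and a threshold of 0.05. Fold changes carry a prior count of 0.125. Standard errors were derived from the F statistic, as the size of the log2 fold change divided by the square root of F. The 95% intervals used the t distribution with the degrees of freedom of the test. CPM used TMM-scaled library sizes, and exon lengths came from GENCODE M21 on GRCm38. The steps were tested on simulated data. Alternatives used DESeq2 1.42.0, limma-voom (limma 3.58.1), RLE and upper-quartile scaling, other filters, a replicate block, GC removal and each mouse left out.

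The members and lists were chosen with earlier results of these data known. Named were all members and other formins, Mef2d, from each list the genes past the threshold and up to 3 of the highest level per kilobase, and the 5 genes nearest to Diaph1. Genes named as the ends of a list, by a call in another setting or by a low p (among them Dvl3, Rock1, Arpc1b, Actr2, Actg1, Fhl2, Zyx, Lmod1, Twf2 and the named cell markers) fall outside this rule and were chosen after their values were seen. Since 1 library is 1 mouse, replicate spread includes both animal and library differences. One of the lists is not reported here.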

Additional observations from a re-analysis of the deposited data

How the results depend on the processing

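Diaph1 passed the threshold in 11 of 12 alternatives, with log2 fold changes from −0.67 to −0.54. The exception was the filter of at least 1 CPM in 2 libraries, at −0.62 with an adjusted p of 0.0556 in edgeR, where 0 members passed. No other member passed in any alternative. The number of genes called was 67 and depended on the setting: 284 with DESeq2, 799 without a filter on low counts and 23 with the 1 CPM filter. Leaving out 1 mouse gave 99 to 299 calls, with 99 without WT mouse 1, 299 without WT mouse 2, 204 without Mef2dα2 Eko mouse 1 and 126 without Mef2dα2 Eko mouse 2, where the lone mouse of a genotype is assumed to vary like the other group. The cause of these differences was not tested.

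A replicate block gave 186 calls, with Diaph1 at −0.61 and an adjusted p of 0.0104 in edgeR. The study describes the mice as littermates, but the labels do not tie a replicate number to a litter. Deviations of same-numbered mice correlated at 0.091, so the numbers were not taken to pair the mice.

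Directions turned in some settings for the members Diaph2, Daam1, Fmn1, Fmnl1 and Fmnl2, and for Fmnl3 and Inf2 outside the members. In the reported fit their log2 fold changes lay between −0.12 for Fmnl1 and 0.08 for Daam1. With GC removed, Diaph2 was at −0.0442, Fmnl2 at −0.0026 and Fmnl3 at 0.0337, and with the replicate block Fmn1 was at −0.0182. With 1 mouse left out, log2 fold changes ranged from −0.0286 to 0.0983 for Diaph2, −0.0254 to 0.20 for Daam1, −0.51 to 0.39 for Fmn1, −0.29 to 0.0589 for Fmnl1, −0.16 to 0.28 for Fmnl2, −0.11 to 0.0776 for Fmnl3 and −0.0037 to 0.16 for Inf2. Depth limits what can be said of Fmn1 and Diaph3, and 2 mice per genotype limit the rest.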
